A study of Mus musculus with 2 samples.

Results

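The microRNA (miRNA) genes of the Hox clusters that belong to the miR-10 and miR-196 families were examined in hippocampus of the mouse. The families were taken by name and position, not by level, though earlier results of these data were known. They comprise 5 of the 2202 annotated miRNA genes counted, Mir10a, Mir10b, Mir196a-1, Mir196a-2 and Mir196b. Small RNA below 30 bases was sequenced from tissue labelled as a hippocampal layer, without the layer being named, of female mice of strain B6CASTF1/J, 2 months old, with no treatment named. These animals are F1 hybrids of C57BL/6J and a castaneus-derived strain, and there is no other genotype, treatment or age in the series. The 2 libraries are biological replicates 1 and 2 of 1 group and carry separate tissue records under a common donor record. Whether 2 animals were used is not stated in the labels. The p-values set the difference between these 2 libraries against counting error alone and hold no estimate of the spread between samples. Such a difference may be technical in part.

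A miRNA is cut from a hairpin transcript into a short single strand, and it represses messenger RNAs that pair with its seed, bases 2 to 8 of the mature strand. The Hox genes encode transcription factors that give cells along the head-to-tail axis their position, and in the nervous system they are active in hindbrain and spinal cord and silent in the forebrain, of which the hippocampus is a part. The miR-10 and miR-196 genes lie between the Hox genes at the same place in different clusters, are transcribed in the same direction as their neighbours, and are known for a similar posterior pattern. Several Hox messenger RNAs are among their known targets, with Hoxb8 the classic target of miR-196.

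The mature sequences are shown because the similarity between members decides what a read count per gene can hold. Capitals mark the seed, and the sequences are those of RefSeq on GRCm38.p6, where all 5 hairpins were found and were identical to the GENCODE M21 gene sequences.
miR-10a-5p: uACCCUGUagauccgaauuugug
miR-10b-5p: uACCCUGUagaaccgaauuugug
miR-196a-5p, from both Mir196a-1 and Mir196a-2: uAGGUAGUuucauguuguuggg
miR-196b-5p: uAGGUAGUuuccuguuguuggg
The members fall into 2 seed families. The seed ACCCUGU belonged to miR-10a-5p and miR-10b-5p and the seed AGGUAGU to miR-196a-5p and miR-196b-5p, and no other mature miRNA among 1679 names in the table carried either. Counted from the 5′ end, miR-10a-5p and miR-10b-5p differed by the substitution U12A and miR-196a-5p and miR-196b-5p by A12C, so both families differ outside the seed at position 12.

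The hairpins of the miR-10 genes and of the miR-196a genes are shown with the 5′ arm in capitals, to show where copies can be told apart.
Mir10a: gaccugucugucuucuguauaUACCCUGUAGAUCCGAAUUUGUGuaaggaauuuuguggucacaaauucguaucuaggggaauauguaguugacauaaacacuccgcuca
Mir10b: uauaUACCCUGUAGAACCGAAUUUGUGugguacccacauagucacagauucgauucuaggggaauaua
Mir196a-1: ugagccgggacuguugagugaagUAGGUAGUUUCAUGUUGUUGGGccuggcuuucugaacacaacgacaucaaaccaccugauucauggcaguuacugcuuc
Mir196a-2: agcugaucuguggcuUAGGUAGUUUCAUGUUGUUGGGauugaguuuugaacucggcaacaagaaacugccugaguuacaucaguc
The longest stretch that Mir10a and Mir10b have in common is 15 bases, and a read over position 12 of the 5′ arm names its gene. Mir196a-1 and Mir196a-2 share an identical stretch of 22 bases, which is exactly the mature 5′ arm. In the deposited tables a read with more than 1 mapping place is given to no gene, so a full-length miR-196a-5p read is not counted for either gene. The counts of Mir196a-1 and Mir196a-2 therefore cannot show how much miR-196a-5p is present. Aligned without gaps, their 3′ arms differ at 17 of 22 positions. Mir196b shares at most 12 bases with another miRNA gene and Mir10a and Mir10b at most 15, so this limit does not touch their full-length arms, as far as the other miRNA genes go.

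The 4 Hox clusters contain 7 annotated miRNA genes, the 5 members, Mir615 in the Hoxc cluster and Gm44463 in the Hoxd cluster. Mir10a (ENSMUSG00000065519.1) lies in the Hoxb cluster, chr11:96317165-96317274 on the plus strand of mm10, in no other gene, 992 bases before Hoxb4. Mir10b (ENSMUSG00000065500.3) lies in the Hoxd cluster, chr2:74726070-74726137 on the plus strand, in introns of Hoxd4 and Hoxd3. Mir196b (ENSMUSG00000065443.1) lies in the Hoxa cluster, chr6:52230081-52230165 on the minus strand, in an exon of Hoxa9 that is annotated there as neither coding sequence nor UTR, 1031 bases after Hoxa10. Mir196a-1 (ENSMUSG00000065546.1) lies in the Hoxb cluster, chr11:96265164-96265265 on the plus strand, in no other gene, between Hoxb13 and Hoxb9. Mir196a-2 (ENSMUSG00000065488.2) lies in the Hoxc cluster, chr15:102973350-102973434 on the plus strand, in an intron of a long Hoxc5 transcript, 1456 bases after Hoxc10.

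**Figure D1:**
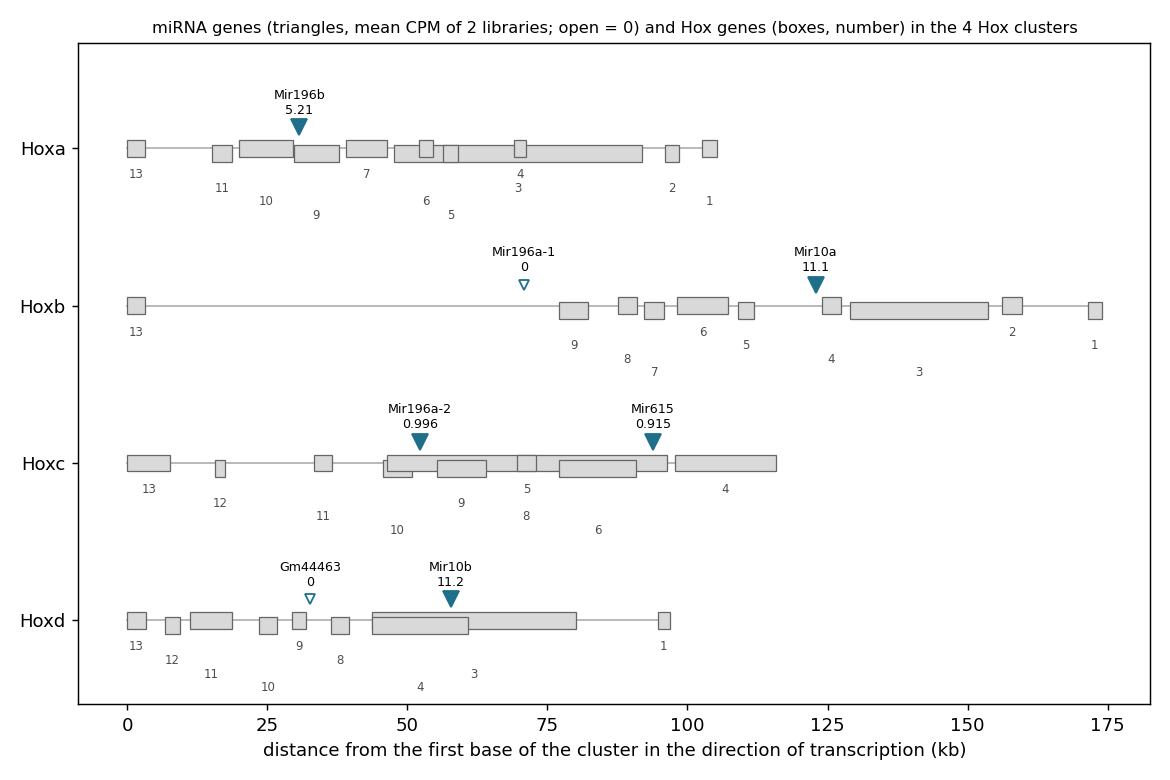
The 4 Hox clusters drawn to scale, with distance in kb along the direction of transcription on the x axis, Hox genes as numbered boxes and miRNA genes as triangles with their mean CPM over 2 libraries. The miR-196 genes lie near the Hox genes numbered 9 and 10 and the miR-10 genes at those numbered 4, and each cluster holds at least 1 miRNA gene with a count.

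All 4 Hox clusters gave reads, at low levels, and in replicate 2 Hoxc gave only 3 counts, all from Mir615. Mir10a of the Hoxb cluster had 54 sense counts in replicate 1 and 61 in replicate 2, out of 4517648 and 5979247 sense counts on miRNA genes. As counts per 1000000 of these (CPM) it stood at 12.0 (exact 95% binomial interval 8.98 to 15.6) and 10.2 (7.80 to 13.1), or 11.1 ± 1.24 CPM (SD, n = 2). The intervals of the libraries overlapped. These intervals express counting error alone and treat each read as independent. Reads copied by PCR do not stand for separate molecules, so the intervals may be too narrow and the p-values too small. Counts were not divided by hairpin length because a read covers a mature miRNA of 22 or 23 bases. Mir10b of the Hoxd cluster had 65 and 48 counts, 14.4 CPM (11.1 to 18.3) in replicate 1 and 8.03 CPM (5.92 to 10.6) in replicate 2, or 11.2 ± 4.50 CPM. Its level was the higher of the miR-10 genes in replicate 1 and the lower in replicate 2. Mir10a made up 45.4% of the miR-10 counts in replicate 1 (95% Wilson interval 36.7 to 54.3) and 56.0% in replicate 2 (46.6 to 64.9), so neither library set the Hoxb copy apart from the Hoxd copy beyond counting error. In bulk tissue, few cells with much of a miRNA and many cells with little cannot be told apart.

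By counted reads, the miR-196 genes lay below the miR-10 genes. Mir196b of the Hoxa cluster had 35 counts in replicate 1 and 16 in replicate 2, 7.75 CPM (exact 95% interval 5.40 to 10.8) and 2.68 CPM (1.53 to 4.35), or 5.21 ± 3.59 CPM (SD, n = 2). These intervals did not overlap. Mir196a-2 of the Hoxc cluster had 9 counts in replicate 1, 1.99 CPM (0.911 to 3.78), and 0 in replicate 2, which allows up to 3 counts or 0.502 CPM. The exact 95% interval of the ratio of replicate 2 to replicate 1 ran from 0 to 0.383. Mir196a-1 of the Hoxb cluster had 0 counts in both libraries. By the same limit of 3 counts, this allows up to 0.664 CPM in replicate 1 and 0.502 CPM in replicate 2 for reads that map to 1 place. The exact 95% interval at a count of 0 reaches further, to 0.817 CPM in replicate 1 and 0.617 CPM in replicate 2. The Hoxb cluster thus gave reads from Mir10a and none from Mir196a-1, although full-length miR-196a-5p reads could not have been counted there. Mir196b supplied 35 of the 44 miR-196 counts of replicate 1, 79.5% (95% Wilson interval 65.5 to 88.8), and all 16 of replicate 2, and its 5′ arm is the one of this family that differs in sequence from its relatives.

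In order of mean level the members ran from Mir10b and Mir10a through Mir196b and Mir196a-2 to Mir196a-1. Mir10b and Mir10a differed by less than the spread between the libraries. The lower of the Mir10a values, 10.2 CPM, lay above the higher Mir196b value, 7.75 CPM, and the lower Mir10b value, 8.03 CPM, did so narrowly. With 2 libraries no exact test over samples can reach a small p, so these orders are descriptions. The miR-10 genes together had 119 and 109 counts, 26.3 CPM in replicate 1 and 18.2 CPM in replicate 2. The miR-196 genes together had 44 and 16 counts, 9.74 and 2.68 CPM. Of all counts on the members, miR-196 genes held 27.0% in replicate 1 (95% Wilson interval 20.8 to 34.3) and 12.8% in replicate 2 (8.03 to 19.8), intervals that do not overlap. Full-length miR-196a-5p reads are not counted in the miR-196 sums and shares, so these do not show how the families compare in amount.

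**Figure D2:**
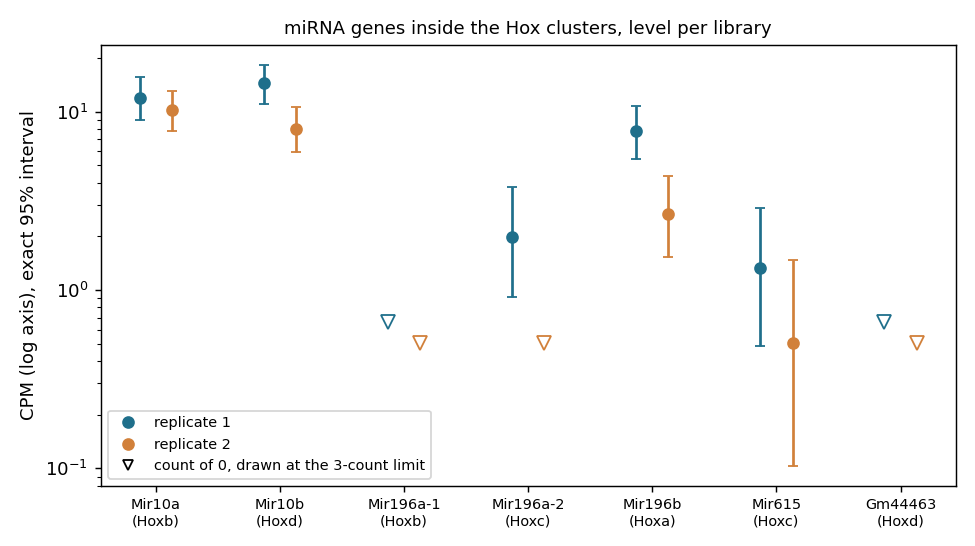
Level of each miRNA gene of the Hox clusters in CPM on a log axis, with points for replicates 1 and 2, bars for exact 95% binomial intervals and open triangles for a count of 0 drawn at the limit of 3 counts. Mir10a and Mir10b lie near 10 CPM in both libraries, Mir196b is lower in replicate 2 (2.68 CPM) than in replicate 1 (7.75 CPM), and Mir196a-1 and Gm44463 have no count.

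Mir615, the remaining known miRNA of the Hoxc cluster, had 6 and 3 counts (1.33 and 0.502 CPM), and Gm44463 of the Hoxd cluster had none. Summed by cluster, Hoxd gave 65 and 48 counts and Hoxb 54 and 61, so each of these rested on a miR-10 gene alone. Hoxa gave 35 and 16 counts, from Mir196b alone. Hoxc, whose miRNA genes Mir196a-2 and Mir615 had at most 3 counts in replicate 2, gave 15 and 3. The ratio of replicate 2 to replicate 1 was 0.151 for Hoxc (exact 95% interval 0.0280 to 0.534), 0.345 for Hoxa (0.179 to 0.641), 0.558 for Hoxd (0.376 to 0.823) and 0.853 for Hoxb (0.582 to 1.25). Whether the clusters differ in this ratio was not tested. The 5 members held 163 of the 169 miRNA counts of the clusters in replicate 1 (96.4%) and 125 of 128 in replicate 2 (97.7%).

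These levels were then set among all miRNA genes. The members together held 0.00361% of the counts on miRNA genes in replicate 1 (95% Wilson interval 0.00310 to 0.00421) and 0.00209% in replicate 2 (0.00175 to 0.00249), or 0.00285% ± 0.00107 (SD, n = 2). Of the 5 members, 3 reached 10 counts in each library, the minimum set for comparing the libraries, against 19.1% of all annotated miRNA genes, and 1 had no count in either library, against 64.9%. By mean CPM, Mir10b ranked 306 and Mir10a 307 among the 774 genes with a count, Mir196b ranked 347 and Mir196a-2 ranked 509. The median of the 420 genes that reached this minimum was 85.3 CPM, and 114 of them lay below Mir10b and 73 below Mir196b. Their nearest neighbours in level were Mir3061 (11.4 CPM) above Mir10b, Mir6953 (11.0 CPM) below Mir10a, and Mir6971 (5.22 CPM) and Mir3080 (5.16 CPM) on either side of Mir196b. Mir196a-2 stood between Mir7049 (1.00 CPM) and Mir6418 (0.971 CPM).

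Outside the Hox clusters, miR-10 has relatives in the miR-99 and miR-100 miRNAs, whose mature sequences are shown for comparison, again with the seed in capitals.
miR-99a-5p: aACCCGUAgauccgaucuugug
miR-99b-5p: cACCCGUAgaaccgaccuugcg
miR-100-5p: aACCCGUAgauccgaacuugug
Their common seed, ACCCGUA, is not that of miR-10. In stretches that start within the seed, miR-10a-5p shares 10 bases in a row with miR-99a-5p and 11 with miR-100-5p, whereas miR-10b-5p shares 10 with miR-99b-5p. Mir99a reached 24373 and 28840 CPM in replicates 1 and 2, Mir99b 6237 and 3388 CPM, and Mir100 3605 and 4460 CPM. The summed level of these relatives was 1299-fold that of the miR-10 genes in replicate 1 and 2013-fold in replicate 2. The miR-125 genes, neighbours of the miR-99 and miR-100 genes, added Mir125a at 18320 ± 968 CPM (SD, n = 2). Mir125b-1 and Mir125b-2 have the same mature 5′ arm, as Mir196a-1 and Mir196a-2 do, so their 797.4 and 508.2 CPM (means of 2 libraries) do not show the level of miR-125b-5p. The 6 relatives and neighbours held 5.45% and 5.57% of the counts. In the comparison of the libraries described below, 3 of them passed as higher and 3 as lower in replicate 2 (median log2 ratio 0.07). Such calls were common, as 27.1% of all genes tested passed as higher and 29.8% as lower.

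**Figure D3:**
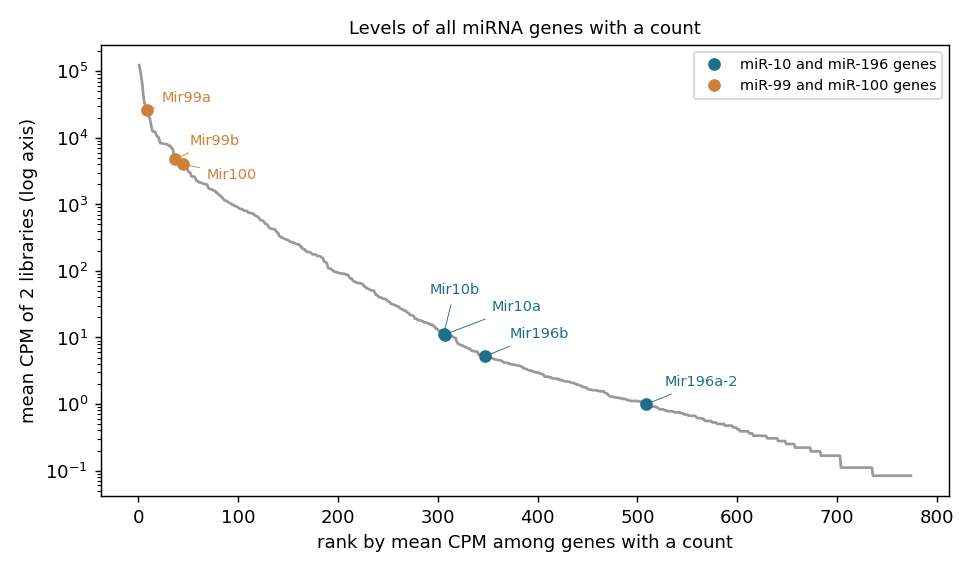
Mean CPM over 2 libraries on a log axis against rank for the 774 genes with a count, with the miR-10 and miR-196 genes in blue and the miR-99 and miR-100 genes in orange. Mir10b and Mir10a sit at ranks 306 and 307, against rank 9 for Mir99a, and Mir196a-1 is not drawn because it has no count.

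Mir196b and Mir10b were lower in replicate 2 by more than counting error, and Mir10a was not shown to differ. Each gene's sense counts were set against the rest of the miRNA counts in a Fisher's exact test (two-sided), with Benjamini-Hochberg adjustment over the 420 genes. It compares the reads of these 2 libraries and no condition. Mir196b was 2.90-fold higher in replicate 1, a log2 ratio of -1.38 on the scale log2(CPM + 0.5) (adjusted p = 0.000718 by Fisher's exact test). Mir10b was 1.79-fold higher in replicate 1, at a log2 ratio of -0.80 (adjusted p = 0.00472 by Fisher's exact test). Mir10a did not pass the threshold of 0.05, at a log2 ratio of -0.22 and an exact 95% interval of the ratio from 0.582 to 1.25 (adjusted p = 0.504 by Fisher's exact test). These counts are read against the background, in which 56.9% of the genes tested passed in either direction while 29.8% passed as lower and 27.1% as higher in replicate 2. Differences of this kind between the libraries were common among all genes, and the median log2 ratio of all genes tested was -0.07. Mir196a-2 and Mir196a-1 fell below the minimum of 10 counts and were not tested. The summed counts of the members were 1.73-fold higher in replicate 1 (exact 95% interval 1.36 to 2.20), those of the miR-10 genes 1.44-fold (1.10 to 1.89) and those of the miR-196 genes 3.64-fold (2.01 to 6.91).

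**Figure D4:**
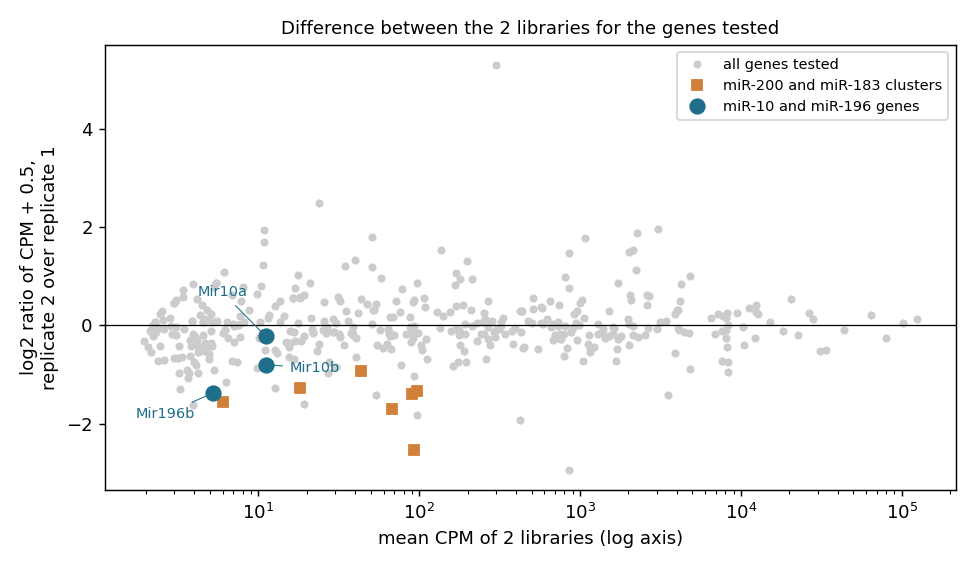
Log2 ratio of CPM + 0.5, replicate 2 over replicate 1, against mean CPM on a log axis for the 420 genes tested, with the 3 tested miR-10 and miR-196 genes as blue circles and the 7 tested genes of the miR-200 and miR-183 clusters as orange squares. Mir196b lies at -1.38 and Mir10b at -0.80, and the orange squares lie between -2.53 and -0.93.

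Other groups of miRNAs known from tissue outside the forebrain did not all move alike between the libraries. The miR-200 family of epithelial cells and the miR-183 cluster of sensory cells, 8 genes in all, summed to 632.2 CPM in replicate 1 and 206.4 CPM in replicate 2, a 3.06-fold difference in the same direction as Mir10b and Mir196b. Of their 7 tested genes, all 7 passed as lower in replicate 2, against 29.8% of all genes tested (median log2 ratio -1.40, against -0.07), with Mir200c, Mir183, Mir429 and Mir182 the most abundant. The list was chosen with earlier results of these data known, so this share is a description and no test. Mir96 of the miR-183 cluster, with 32 and 3 counts, was not tested. The part of other tissue in the levels of Mir10b and Mir196b was not tested. The list of other organs summed to 461.5 and 442.7 CPM over 17 genes, with 3 at 0 in both libraries and a median log2 ratio of 0.13 over 5 tested genes. Mir375 and Mir499 passed as higher in replicate 2, and the muscle miRNA Mir206 passed as lower, at 357 and 176 counts. Its log2 ratio was -1.41 (Fisher's exact test, adjusted p = 4.82e-28). The heart miRNAs Mir208a, with 15 and 4 counts, and Mir208b, with 7 and 0, were not tested. Also untested, Mir1b with 9 and 19 counts and Mir217 with 1 and 13 ran the other way. The remaining untested genes with a count were Mir205 (9 and 8), Mir216a and Mir216b (0 and 2 each), and Mir1a-2 and Mir133b (1 and 0 each). The list was led by Mir375 (256.3 CPM), Mir203 (88.0 CPM), Mir206 (54.2 CPM) and Mir122 (38.7 CPM), each above every Hox cluster miRNA. The clusters of pluripotent cells, whose miRNAs are known from embryonic stem cells, came to 9 and 7 counts over 13 genes, 9 of which had no count, and their highest gene, Mir302a, had 6 and 0 counts. Mir10a and Mir10b each had at least 48 counts in either library, more than this whole group.

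The summed levels of vessel, blood and choroid plexus miRNAs were higher in replicate 2, unlike those of Mir10b and Mir196b. The endothelial and mural list summed to 19223 and 22325 CPM, with Mir126a and Mir143 passing as higher in replicate 2, Mir145a not passing (log2 ratio -0.08), a median log2 ratio of 0.15 and Mir126b at 0. The erythroid and leukocyte list summed to 1859 and 2208 CPM, with 4 of 8 tested genes passing as higher in replicate 2, the other 4 not passing at log2 ratios from -0.31 to -0.07, a median of 0.04, and Mir451b and Mir142b at 0. The choroid plexus and ependyma list summed to 1502 and 2025 CPM, with 2 of 4 tested genes passing as higher, Mir34b (log2 ratio -0.37) and Mir449a (-0.01) not passing, a median of 0.22 and Mir449b at 0. Over all genes tested, 27.1% passed as higher. The forebrain neuron list held 4.82% and 5.28% of the counts, with Mir132, Mir128-1, Mir137 and Mir138-1 at the top. Its median log2 ratio was -0.05, with 3 of 9 tested genes passing as higher and 5 as lower. Over all genes tested, 29.8% passed as lower. The series holds no other brain region, so this list cannot tell forebrain from other neural tissue. The miR-124 and miR-9 genes, which have several gene copies as miR-196a does, were low in this list, with Mir9-3 the highest at 92.3 CPM. In mean CPM, Mir9-1 (10.9), Mir124a-1 (2.19), Mir9-2 (1.56), Mir124a-3 (0.472) and Mir124a-2 (0.443) all lay below Mir10a and Mir10b. How far reads with several mapping places lower these values was not tested.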

How the data were processed

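For each library the authors deposited raw read counts per miRNA gene in 1 table, neither normalized nor pooled, made on mm10 and GENCODE M21 as the deposited notes state. Not given in the sources used here are the aligner, the trimming and the treatment of castaneus alleles. Of the 3 columns of counts, the sense column, recognised by its larger total, was used. Replicate 1 held 11666435 reads and replicate 2 held 16280072, of which 45.9% and 48.4% mapped to several places and 38.7% and 36.7% gave sense counts. Lines without a gene were kept out of library totals and tests.

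CPM, SD, intervals and Fisher tests were computed with Python 3.11.15 and scipy 1.17.1, and the alternative scalings with edgeR 4.0.16 and DESeq2 1.42.0. The test was tested on simulated data. A Hox cluster ran from its first to its last Hox gene in GENCODE M21. Identical stretches were searched among miRNA gene sequences only. The pseudocount was 0.5 CPM and a count of 0 was read as up to 3 counts. The members and lists were chosen with earlier results of these data known. The genes named are the members, the other Hox cluster miRNAs with a count, up to 4 genes of highest mean CPM per list, and the genes next to each member in level. The miR-99, miR-100, miR-125, Mir96, Mir9-3, Mir499, Mir208a, Mir208b and Gm44463 genes, the list members at 0 and Mir302a were named beside them after their values were seen. Of the names listed, Mir292a and Mir486b found no gene in the table.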

Additional observations from a re-analysis of the deposited data

How the results depend on the processing

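Each of the 3 tested members kept its direction and its side of the threshold under all 10 alternatives that gave it a value (TMM and DESeq2 size factors with an exact binomial test, the deeper library thinned to 4517648 counts, the unstranded column, minima of 1 and 5 counts, no minimum, pseudocounts of 1 and 5 CPM, and totals without the most abundant gene). The log2 ratio ran from -1.49 to -0.73 for Mir196b, from -0.93 to -0.57 for Mir10b and from -0.28 to -0.16 for Mir10a, with adjusted p-values of 0.000718 to 0.00131, 0.00343 to 0.00861 and 0.471 to 0.648. The pseudocounts could change neither the direction nor the p-values. The minima of 1 and 5 counts and no minimum could change only the adjustment of the p-values. A minimum of 100 counts left no member to test. With no minimum Mir196a-2 entered the test, with an adjusted p of 0.00205 by Fisher's exact test over 774 genes on 9 against 0 counts. The members' share of 0.00285% became 0.00108% of all reads, which include those given to no gene, and was 0.00209% and 0.00361% with 1 library left out. The number of genes differing between the libraries, 239, ran from 200 to 249, and the part of them higher in replicate 2 from 46.5% to 52.5% (47.7% in the main comparison). Leaving out a library leaves no ratio. No paired analysis was possible because the series has 1 group. Depth limits Mir615, Mir196a-1 and Mir196a-2, which had under 10 counts in each library. In addition, full-length miR-196a-5p reads are counted for neither Mir196a-1 nor Mir196a-2 at any depth. How many such reads there were is not known.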

Other observations

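Reads on the opposite strand were nearly absent at the Hox cluster miRNAs. Mir10a had 2 antisense counts in replicate 2 and none in replicate 1, within the limit of 3 counts that a count of 0 allows, and the other 6 miRNA genes of the clusters had none. The counts without regard to strand were therefore those of the sense column for every member but Mir10a in replicate 2, which stood at 63 instead of 61.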
